A study of Mus musculus with 6 samples.

Results

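Cadherins, claudins, desmosomal cadherins and connexins build the junctions between neighbouring cells, and their transcripts were compared in the root-forming end of mouse molars with and without deletion of Arid1a. The genes were taken by name. Every gene of the count table whose symbol begins with Cdh, Cldn, Dsg, Dsc, Gja, Gjb or Gjc followed by a number was a member, without the endothelial cadherin gene Cdh5. That gave 51 of the 22287 genes in the table, made up of 20 cadherins, 13 claudins, 8 desmosomal cadherins and 10 connexins.

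The mutant group held 3 libraries (replicates 3, 4 and 5) from Gli1-CreER;Arid1a fl/fl mice and the control group 3 libraries (replicates 2, 3 and 5) from Arid1a fl/fl mice. Arid1a encodes a subunit of the BAF chromatin remodelling complex, and the series title ties it to cell cycle arrest in tooth root progenitors. All mice were C57BL/6, and all received tamoxifen in corn oil (20 mg/ml) by intraperitoneal injection, a dose of 1.5 mg for each 10 g of weight given at postnatal day 3.5. The root end of the first molar of the lower jaw was dissected at postnatal day 7.5, so both groups carried the floxed allele and were exposed to tamoxifen. Only the mutants carried CreER, so the deletion and the recombinase itself cannot be told apart. The Gli1 promoter drives the recombinase, so recombination is limited to cells that express Gli1 and their descendants, while each library holds RNA of the whole tissue piece. The labels do not say that the libraries came from separate animals, so p-values measure only the spread between these libraries.

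Classical cadherins such as E-, P- and N-cadherin hold cells together at adherens junctions, where they bind actin through catenins. Desmogleins and desmocollins are the cadherins of desmosomes and are tied to keratin filaments through plaque proteins, claudins seal tight junctions and set which ions pass, and connexins form gap junction channels between cells. In a tooth, E-cadherin, P-cadherin and desmosomes belong to the dental epithelium, whereas cadherin-11 and N-cadherin are found in the mesenchyme, N-cadherin also in differentiated odontoblasts and ameloblasts. Cx43, the connexin that Gja1 encodes, is found in both layers. In a bulk library, fewer cells of a type and less RNA per cell cannot be told apart.

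Total estimated counts ran between 20453247 and 24255352 per library. Arid1a stood at 120, 134 and 130.5 CPM (counts scaled to an equal library size, with TMM factors) in mutant replicates 3, 4 and 5, against 210, 202 and 204 CPM in control replicates 2, 3 and 5, and it was lower in every mutant library (log2 fold change -0.68, SE 0.07; edgeR adjusted p = 0.0129, and 0.0506 without control replicate 2 and 0.0529 without control replicate 3). Gli1, whose promoter drives the recombinase, averaged 37.3 ± 3.97 CPM in mutants and 88.6 ± 10.9 CPM in controls (SD, n = 3 each). Control replicate 5 stood apart in genes of the outer layers of oral epithelium. A list of 8 such genes, chosen after its values were seen, summed to 12.95, 7.46 and 31.5 CPM in the mutants, against 7.25 and 10.95 CPM in control replicates 2 and 3 and 788 CPM in control replicate 5. Under the default scaling 114 genes were higher and 208 lower in mutants, and with library totals alone, which moved the median log2 value over all genes to 0.21, the split was 411 higher and 109 lower.

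None of the 51 genes passed the test between mutants and controls. Of these, 40 passed the filter on low counts and were tested with edgeR's quasi-likelihood test, and 0 of the 40 had an adjusted p under 0.05, where 1.86% of the 17305 genes tested were called (0.659% higher and 1.20% lower). At an unadjusted p under 0.05 there were 12, 6 higher and 6 lower in mutants, which is 30.0% of those tested, beside 15.0% of all genes (7.13% higher and 7.83% lower). DESeq2 called 3 (Cldn11 higher, Cdh23 and Dsg1a lower) and limma 0. The groups did not overlap for 15 of the 40, beside 21.3% of all genes. Every mutant library lay above every control library for 8 of them, beside 10.6% of all genes, and below for 7, beside 10.8%. With library totals alone these counts were 9 above and 2 below. The median log2 fold change was 0.01 over the tested members and 0.01 over all genes.

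**Figure D1:**
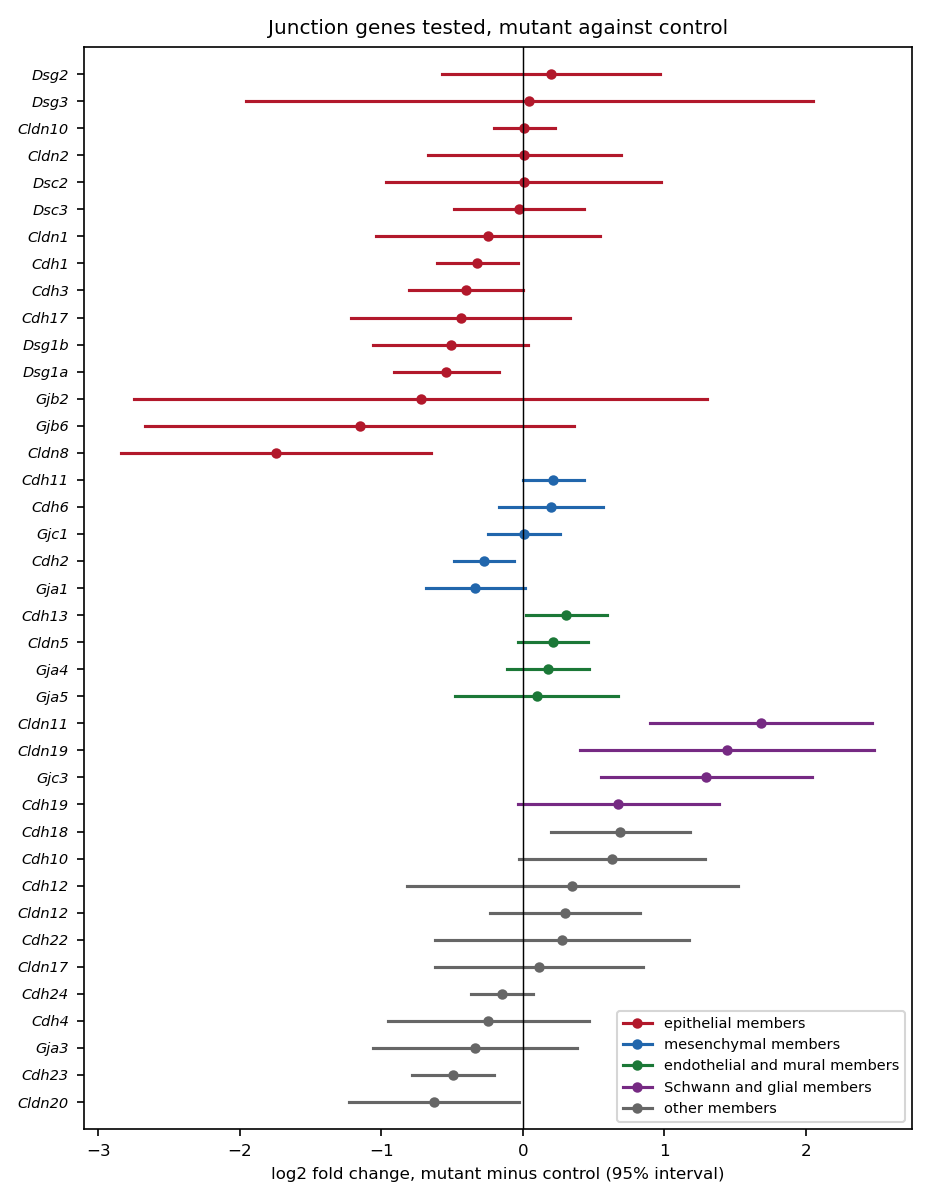
Log2 fold change of 39 of the 40 junction genes tested, mutant minus control (points), with 95% intervals of the edgeR fit (lines), grouped and coloured by the cell type in which each gene is best known. Values run between -1.74 for Cldn8 and 1.68 for Cldn11, and no gene passed the adjusted threshold.

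Among the classical cadherins, the E-cadherin gene Cdh1 and the N-cadherin gene Cdh2 were both below every control library in every mutant library, whereas Cdh11 was above. None of the 3 passed the test. Cdh1, the main adhesion molecule of epithelia, stood at 140.4, 136 and 107 CPM in the mutants, against 142, 161 and 175 CPM in the controls, with the replicates in the order given above here and below. The groups lay next to each other, the highest mutant just under the lowest control. Its log2 fold change was -0.32 (SE 0.12, 95% interval -0.61 to -0.03; edgeR adjusted p = 0.273). With library totals alone the value was -0.12 and the groups overlapped.

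Cdh3 encodes P-cadherin, which shares adherens junctions with E-cadherin in many epithelia. It stood at 88.8, 73.0 and 53.1 CPM in mutants, against 84.0, 98.5 and 102 CPM in controls. Mutant replicate 3 lay inside the control range and the other mutants below it (log2 fold change -0.40, SE 0.17, 95% interval -0.81 to 0.00; edgeR adjusted p = 0.335). Cdh3 and Cdh1 are neighbours on the plus strand of chromosome 8 in mm10, at chr8:106510891-106557297 and chr8:106603351-106670246. Per kilobase of exon, the level of Cdh1 was 1.52, 1.79 and 1.92 times that of Cdh3 in mutants, against 1.62, 1.57 and 1.65 times in controls, so the ratio was above the control range in 2 mutant libraries and below it in 1.

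Cdh2 encodes N-cadherin, and it stood at 221, 232 and 207 CPM in mutants, against 240.3, 267 and 289.9 CPM in controls. The log2 fold change was -0.27 (SE 0.09, 95% interval -0.49 to -0.06; edgeR adjusted p = 0.203), and with library totals alone it was -0.07 with overlapping groups. Cdh11, the cadherin of mesenchymal and bone-forming cells, stood at 383, 449.8 and 408 CPM in mutants, against 367, 327 and 373 CPM in controls. Its log2 fold change was 0.22 (SE 0.09, 95% interval 0.00 to 0.43; edgeR adjusted p = 0.331). The groups of both genes were apart, in opposite directions.

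The balance of the cadherins within each library followed from these levels. Per kilobase of exon, Cdh1 was at 1.12, 1.04 and 0.91 times the level of Cdh2 in mutants, against 1.04, 1.06 and 1.07 times in controls, and the groups overlapped. Cdh11 was at 1.57, 1.76 and 1.79 times the level of Cdh2 in mutants, against 1.39, 1.11 and 1.16 times in controls. That ratio, which does not depend on how libraries were scaled, was above the control range in every mutant library. It was picked after the values of both genes had been seen and carries no test. Another mesenchymal cadherin gene, Cdh6, ranged between 15.4 and 22.3 CPM in mutants and between 15.8 and 19.2 CPM in controls.

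**Figure D2:**
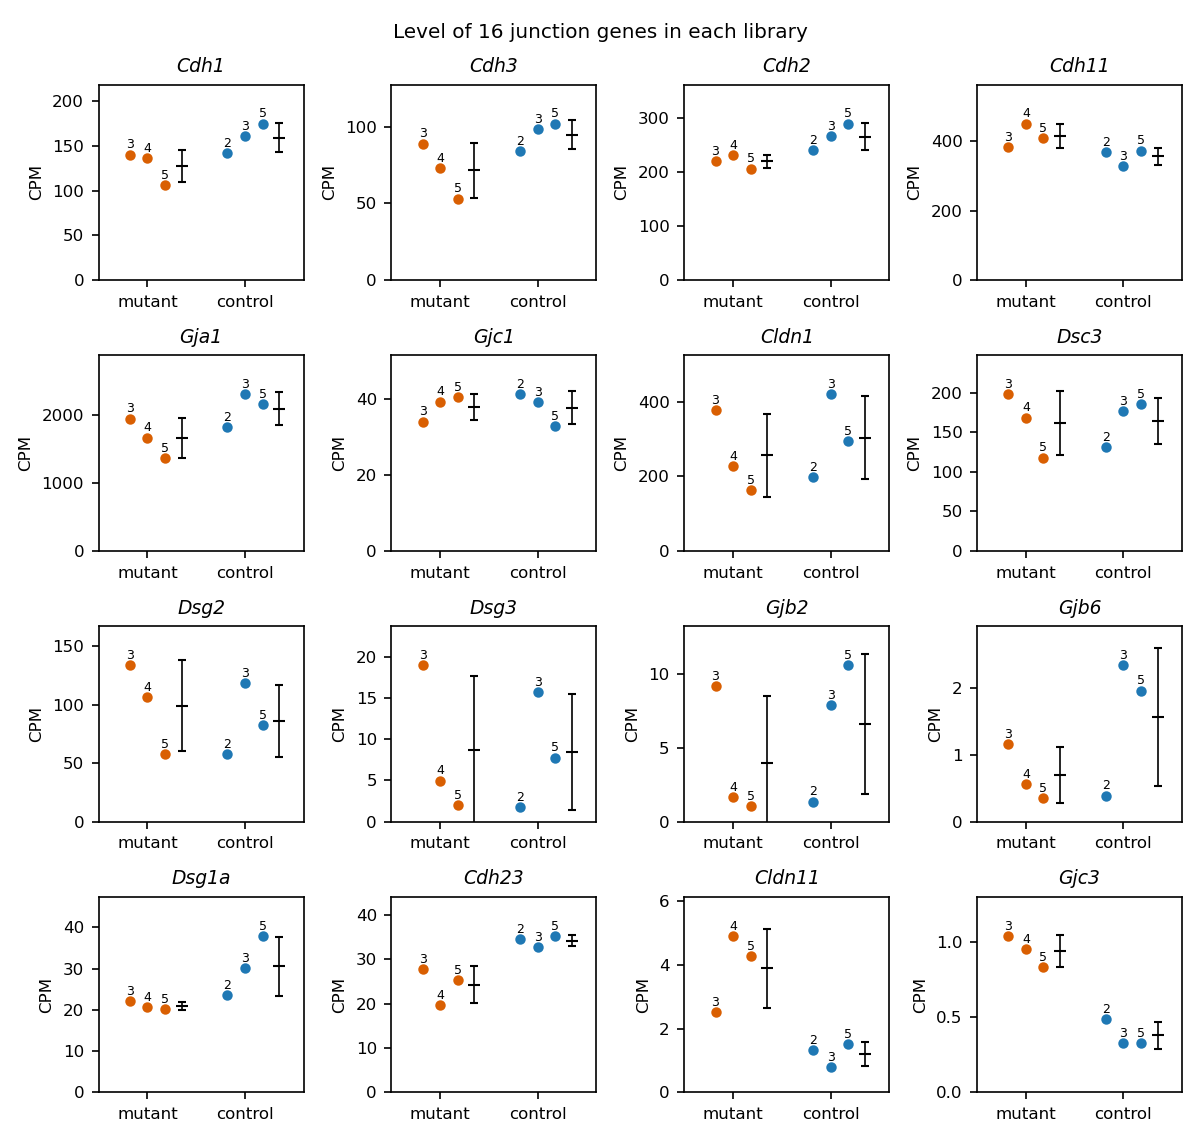
CPM of 16 junction genes in each library, mutants left and controls right, with replicate numbers beside the points and the group mean ± SD beside each group (an SD bar that would pass below 0 ends at the axis). Cdh11, Cldn11 and Gjc3 are higher and Cdh1, Cdh2, Dsg1a and Cdh23 lower in every mutant library, whereas Dsg3 and Gjb2 spread widely within both groups.

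Of all cadherins, Cdh23 and Cdh18 had the smallest p-values, 1 with mutants below and 1 with mutants above. Cdh23 encodes cadherin-23, a tip link protein of inner ear hair cells. It stood at 27.8, 19.7 and 25.2 CPM in mutants, against 34.5, 32.7 and 35.2 CPM in controls, with the groups apart (log2 fold change -0.49, SE 0.13, 95% interval -0.78 to -0.20; edgeR adjusted p = 0.106). DESeq2 called it, at an adjusted p of 0.0214. It also stayed below the controls in every mutant library with library totals alone. Cdh18, a cadherin best known from the nervous system, was at 4.10, 5.73 and 5.36 CPM in mutants, against 2.87, 3.84 and 2.67 CPM in controls (log2 fold change 0.69, SE 0.21, 95% interval 0.20 to 1.18; edgeR adjusted p = 0.168), again with the groups apart. Of the other cadherins tested, Cdh10 and Cdh13 were above and Cdh24 below the control range in every mutant library, with log2 fold changes of 0.63, 0.31 and -0.14 and edgeR adjusted p-values of 0.352, 0.284 and 0.541. Cdh4, Cdh12, Cdh17 and Cdh22 stood at 3.02 CPM or less in every library, with overlapping groups.

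No desmosomal cadherin passed the test, and several spread widely within both groups. All 8 genes form 1 cluster on chromosome 18, spanning 643.6 kb in mm10, with the desmocollins on the minus and the desmogleins on the plus strand. Of the 6 tested, 3 had a positive and 3 a negative log2 fold change, and the median was -0.01. Mutant replicate 3 was the highest and mutant replicate 5 the lowest of the mutants in 6 of 6, where these libraries held those places in 35.4% and 34.0% of all genes tested.

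Dsg3, a desmoglein of stratified epithelia, stood at 19.0, 4.99 and 2.02 CPM in mutants, against 1.75, 15.8 and 7.78 CPM in controls. The highest library was 9.41 times the lowest among mutants and 9.01 times among controls. Its log2 fold change of 0.05 therefore had a 95% interval of -1.96 to 2.05 (SE 0.87; edgeR adjusted p = 0.988), and without mutant replicate 3 it was -1.27. Dsg2, the widely expressed desmoglein of simple and basal epithelia, stood at 134, 107 and 57.5 CPM in mutants, against 57.7, 119 and 82.9 CPM in controls (log2 fold change 0.20, SE 0.33, 95% interval -0.57 to 0.97; edgeR adjusted p = 0.838). A stretch of 330 bases of its exons, 4.0% of their length, also lies in the opposite-strand gene Gm16090. Whether the counting took the strand of a read into account is not known.

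Dsc2 and Dsc3 encode the desmocollins that pair with these desmogleins. Dsc2 was at 36.0, 20.6 and 11.5 CPM in mutants, against 13.1, 30.8 and 24.1 CPM in controls (log2 fold change 0.01, SE 0.42, 95% interval -0.97 to 0.98; edgeR adjusted p = 0.997). Dsc3 was at 198, 169 and 118 CPM in mutants, against 132, 177 and 186 CPM in controls (log2 fold change -0.03, SE 0.20, 95% interval -0.49 to 0.43; edgeR adjusted p = 0.967). Both had overlapping groups, with the same mutant library highest and the same one lowest as Dsg3 and Dsg2.

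Dsg1a and Dsg1b, desmogleins of the upper layers of stratified epithelia, had the smallest p-values of the family. Dsg1a stood at 22.1, 20.7 and 20.2 CPM in mutants, against 23.6, 30.2 and 37.9 CPM in controls, with the groups apart (log2 fold change -0.54, SE 0.16, 95% interval -0.91 to -0.17; edgeR adjusted p = 0.152). DESeq2 called it, at an adjusted p of 0.0447, and with library totals alone the groups overlapped. Dsg1b stood at 17.6, 16.1 and 10.6 CPM in mutants, against 16.1, 19.6 and 27.5 CPM in controls (log2 fold change -0.51, SE 0.24, 95% interval -1.06 to 0.04; edgeR adjusted p = 0.371). The Dsg1 genes are near-identical copies whose reads the counting divided by estimate, so their separate values are uncertain. In both genes control replicate 5, the library with the oral epithelium genes, was the highest.

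That library also held nearly all reads of Dsc1, the desmocollin of the outermost epithelial layers. Its counts were 2, 3 and 6 in the mutants, against 0 and 1 in control replicates 2 and 3 and 225 in control replicate 5, and it failed the filter on low counts. Cldn4, a claudin of differentiated epithelia, had counts of 1, 2 and 3 in mutants, against 0, 1 and 16 in controls, with the 16 again in control replicate 5. The keratin genes of suprabasal oral epithelium in the same library were far above the others. Krt4 stood at 3.71, 1.34 and 9.18 CPM in mutants, against 1.41, 3.28 and 342 CPM in controls, and Krt13 at 3.86, 2.17 and 11.3 CPM in mutants, against 1.56, 2.95 and 299 CPM in controls. The part of these genes in the values of Dsg1a, Dsg1b, Dsc1 and Cldn4 was not tested. With 1 library left out, the log2 fold change ran between -0.69 and -0.35 for Dsg1a and between -0.66 and -0.26 for Dsg1b. The values of -0.35 and -0.26 came from leaving out control replicate 5. For Dsg1b, leaving out mutant replicate 5 instead gave -0.32.

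Among the claudins, Cldn1 had the highest level per kilobase of exon and Cldn11 came closest to the threshold. Cldn1, a barrier-forming claudin of stratified epithelia, stood at 378, 227 and 163 CPM in mutants, against 197, 419.6 and 295 CPM in controls. The ranges overlapped broadly, and the highest library was 2.32 times the lowest among mutants and 2.13 times among controls. The log2 fold change was -0.25 (SE 0.34, 95% interval -1.04 to 0.55; edgeR adjusted p = 0.798). Cldn10, a claudin whose isoforms form ion channels, varied little, at 56.1, 45.5 and 51.5 CPM in mutants, against 49.3, 53.0 and 49.5 CPM in controls. Its log2 fold change was 0.01 with a 95% interval of -0.20 to 0.22 (edgeR adjusted p = 0.969).

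Cldn8, a claudin of tight epithelia such as the distal nephron, was the member with the lowest log2 fold change, on very few reads. Its counts were 3, 4 and 7 in mutants, against 12, 11 and 17 in controls, or 0.116, 0.174 and 0.307 CPM in mutants and 0.584, 0.515 and 0.925 CPM in controls. The groups were apart (log2 fold change -1.74, SE 0.47, 95% interval -2.84 to -0.64; edgeR adjusted p = 0.124). Cldn20 ranged between 10.1 and 23.4 CPM in mutants and between 24.6 and 29.3 CPM in controls, apart under the default scaling and overlapping with library totals alone. Cldn2, Cldn12 and Cldn17 had overlapping groups. Cldn5, the claudin of endothelial tight junctions, stood between 11.4 and 11.7 CPM in mutants and between 9.10 and 10.6 CPM in controls, with a log2 fold change of 0.21 (95% interval -0.04 to 0.46; edgeR adjusted p = 0.413). Cldn3 was not analysed here.

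Of the connexins, Gja1 had the highest level per kilobase of exon of all members in both groups. It encodes Cx43, and it stood at 1944, 1663 and 1361 CPM in mutants, against 1821, 2299.9 and 2152 CPM in controls. The log2 fold change was -0.34 (SE 0.15, 95% interval -0.69 to 0.01; edgeR adjusted p = 0.352), with mutant replicate 3 inside the control range. Gjc1, which encodes Cx45, was at 34.0, 39.3 and 40.5 CPM in mutants, against 41.1, 39.1 and 32.8 CPM in controls, with a log2 fold change of 0.01 (95% interval -0.25 to 0.26; edgeR adjusted p = 0.985).

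Gjb2 and Gjb6 encode Cx26 and Cx30, connexins that can combine in the same channels of epithelia and of the inner ear. They lie next to each other with Gja3 on the minus strand of chromosome 14, in 99.2 kb of mm10. Gjb2 stood at 9.20, 1.65 and 1.05 CPM in mutants, against 1.36, 7.91 and 10.6 CPM in controls, so that 1 mutant and 2 control libraries were high and the others low. The highest library was 8.73 times the lowest among mutants and 7.79 times among controls. The log2 fold change of -0.72 had a 95% interval of -2.75 to 1.30 (SE 0.88; edgeR adjusted p = 0.764), and it was -2.28 without mutant replicate 3 and -0.20 without control replicate 5. Gjb6 stood at 1.16, 0.564 and 0.351 CPM in mutants, against 0.389, 2.34 and 1.96 CPM in controls (log2 fold change -1.15, SE 0.65, 95% interval -2.67 to 0.36; edgeR adjusted p = 0.468). The same libraries were high for both neighbours. Per kilobase of exon, the level of Gjb2 was 8.82, 3.25 and 3.33 times that of Gjb6 in mutants, against 3.89, 3.76 and 6.02 times in controls.

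The sequences just upstream of Gjb2 and Gjb6 are shown because these genes, though not only these, were high and low in the same libraries. They are the 250 bases before the start of each gene in RefSeq (GRCm38.p6), for Gjb2 chr14:57104703-57104952 and for Gjb6 chr14:57133612-57133861, both on the minus strand. Capitals mark matches, on either strand, to GGGCGG (the GC box), TATAAA (the TATA box), ACAAAG and AACAAT (cores bound by Sox factors) and CAGGTG (an E-box bound by Snail and Zeb factors).
Gjb2: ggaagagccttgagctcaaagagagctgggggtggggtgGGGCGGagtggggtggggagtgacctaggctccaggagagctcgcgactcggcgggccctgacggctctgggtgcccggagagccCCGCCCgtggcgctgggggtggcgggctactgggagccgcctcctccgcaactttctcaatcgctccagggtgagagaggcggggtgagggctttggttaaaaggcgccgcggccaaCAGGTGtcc
Gjb6: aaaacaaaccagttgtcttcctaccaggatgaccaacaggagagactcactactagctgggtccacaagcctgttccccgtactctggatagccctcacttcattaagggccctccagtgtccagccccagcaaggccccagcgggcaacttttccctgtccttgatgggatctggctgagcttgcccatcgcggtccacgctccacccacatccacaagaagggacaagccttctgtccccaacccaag
The window of Gjb2 held 2 GC boxes and 1 CAGGTG, and that of Gjb6 held no match to any of the 5 motifs. Of all 32851 promoter windows of this length, 32.7% held GGGCGG, 12.4% TATAAA, 16.5% ACAAAG, 9.42% AACAAT and 17.2% CAGGTG on either strand. A match is a description of the letters in the window.

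The members best known from Schwann cells and other glia had the highest median of the cell type groups. Of the 5 in the table, all were tested, 4 had a positive log2 fold change and 3 (Cldn11, Cldn19 and Gjc3) were above every control library in every mutant library, beside 10.6% of all genes. The median log2 fold change was 1.30, where that of all genes was 0.01, and none passed the test. Cldn11, a claudin that seals the myelin of the brain and the barrier of the testis, stood at 2.51, 4.90 and 4.26 CPM in mutants, against 1.31, 0.796 and 1.52 CPM in controls. Its log2 fold change was 1.68 (SE 0.34, 95% interval 0.90 to 2.47; edgeR adjusted p = 0.0558). It was past the threshold with library totals alone (edgeR adjusted p = 0.0360), with DESeq2 (adjusted p = 0.000921) and without mutant replicate 3 (log2 fold change 1.92; edgeR adjusted p = 0.0392), and over the 13 alternatives its adjusted p ran between 0.000921 and 0.176.

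Gjc3 encodes Cx29, a connexin that Schwann cells and oligodendrocytes express. It stood at 1.04, 0.954 and 0.834 CPM in mutants, against 0.486, 0.328 and 0.327 CPM in controls (log2 fold change 1.30, SE 0.32, 95% interval 0.55 to 2.05; edgeR adjusted p = 0.101). Cldn19, a claudin of Schwann cells and of the kidney, was chosen here after its values were seen. It stood at 0.734, 0.564 and 0.483 CPM in mutants, against 0.340, 0.140 and 0.163 CPM in controls (log2 fold change 1.44, SE 0.45, 95% interval 0.41 to 2.48; edgeR adjusted p = 0.172). Cdh19, a cadherin of Schwann cell precursors, had overlapping groups, with a log2 fold change of 0.68.

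Markers of Schwann cells were measured beside these members. The 6 markers summed to 34.8, 34.4 and 28.1 CPM in mutants, against 28.2, 31.7 and 29.0 CPM in controls. These sums overlapped, and 0 of the 6 passed the test. The mean log2(CPM + 1) of the 6 was 2.499, 2.569 and 2.363 in mutants, against 2.284, 2.338 and 2.264 in controls. On that measure the groups were apart, with mutants above. Of the 6, 5 had a positive and 1 a negative log2 fold change. None was at 0. Sox10, the transcription factor of the glial lineage, stood at 3.13, 4.03 and 3.69 CPM in mutants, against 3.02, 2.43 and 1.96 CPM in controls. Its groups were apart with mutants above, whereas Mbp, which encodes a myelin protein, was at 8.08, 6.33 and 6.50 CPM in mutants, against 9.48, 9.69 and 10.1 CPM in controls. The part of these markers in the values of the glial members was not tested.

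The upstream sequences of Cldn11, Cldn19 and Gjc3 are shown because these 3 genes were higher together. They lie at chr3:31149670-31149919 (plus strand), chr4:119255191-119255440 (plus strand) and chr5:137963099-137963348 (minus strand) of GRCm38.p6, again the 250 bases before the RefSeq start, with capitals for the same motifs.
Cldn11: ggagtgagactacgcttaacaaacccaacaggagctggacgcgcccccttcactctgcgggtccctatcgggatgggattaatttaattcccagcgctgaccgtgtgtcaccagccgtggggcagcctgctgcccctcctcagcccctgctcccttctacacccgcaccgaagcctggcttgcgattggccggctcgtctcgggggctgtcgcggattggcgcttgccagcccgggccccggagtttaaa
Cldn19: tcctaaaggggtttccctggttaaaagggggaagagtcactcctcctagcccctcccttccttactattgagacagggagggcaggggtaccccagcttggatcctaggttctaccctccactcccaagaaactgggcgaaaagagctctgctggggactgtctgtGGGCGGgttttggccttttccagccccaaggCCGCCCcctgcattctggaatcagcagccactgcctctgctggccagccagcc
Gjc3: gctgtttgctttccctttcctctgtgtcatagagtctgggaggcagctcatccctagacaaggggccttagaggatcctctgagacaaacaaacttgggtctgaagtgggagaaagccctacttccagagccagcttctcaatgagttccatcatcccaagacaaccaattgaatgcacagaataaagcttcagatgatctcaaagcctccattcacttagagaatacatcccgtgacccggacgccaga
Cldn19 held 2 GC boxes, and the windows of Cldn11 and Gjc3 held no match to any of the 5 motifs. No motif was in all 3 windows, which says only that these letters are not there. Of the 51 members, 32 had a promoter in the table.

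Neither the epithelial nor the mesenchymal members, as sorted here, all went in the same direction. Of the 15 epithelial members tested, of 20 in the table, 5 had a positive and 10 a negative log2 fold change, 3 were below every control library (Cdh1, Dsg1a and Cldn8) and 0 above, and the median was -0.32. Of all genes, 10.8% were below and 10.6% above in this way. Of the 5 mesenchymal members, all tested, 3 were positive and 2 negative, 1 was above (Cdh11) and 1 below (Cdh2), beside the same 10.6% and 10.8% of all genes, and the median was 0.01. The 4 endothelial and mural members (Cdh13, Cldn5, Gja4 and Gja5) were all positive, between 0.10 and 0.31 on the log2 scale, with 2 above, beside 10.6% of all genes. The 11 tested members outside these groups had a median of 0.12, 6 positive and 5 negative. The genes were sorted into these groups by textbook knowledge, and the groups are not exclusive. The positive mesenchymal members were Cdh6, Cdh11 and Gjc1, with log2 fold changes of 0.20, 0.22 and 0.01. The negative ones were Cdh2 and Gja1, with log2 fold changes of -0.27 and -0.34. N-cadherin and Cx43, which these 2 genes encode, are also found in the dental epithelium, as given above. The part of epithelial cells in their values was not tested.

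**Figure D3:**
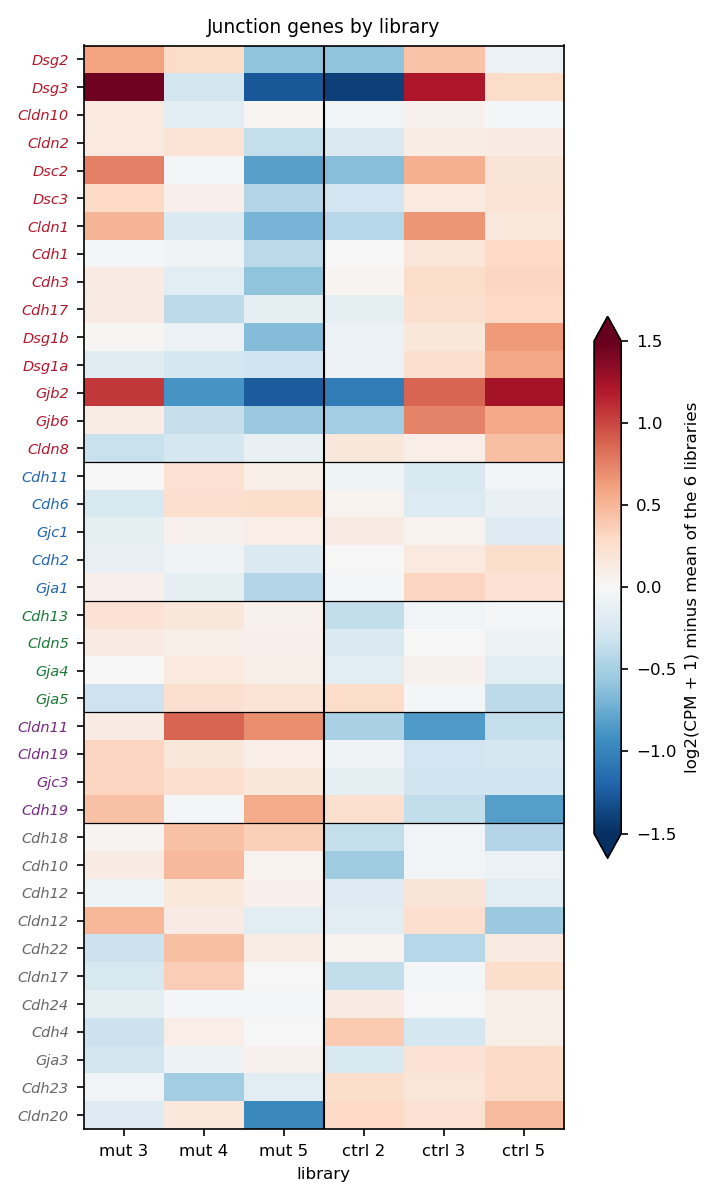
Log2(CPM + 1) of 39 of the 40 junction genes tested in each library minus the gene's mean over the 6 libraries, with mutants (mut) left and controls (ctrl) right and gene names coloured by cell type group. In the epithelial block at the top, mutant replicate 5 is the lowest library in 11 of 15 genes, beside 17.9% of all genes tested. Control replicate 5 is the highest in 7 of 15 (46.7%), beside 21.1% of all genes tested.

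The epithelial members varied together between the libraries of each group. Their CPM, summed over the 20 genes, was 1105, 827 and 600 in the mutants, against 722, 1140 and 1019 in the controls, and the groups overlapped. Within the mutants, replicate 3 was the highest in 13 of the 15 tested (86.7%, beside 35.4% of all genes) and replicate 5 the lowest in 12 (80.0%, beside 34.0%). Over all 6 libraries, mutant replicate 5 was the lowest in 11 (73.3%, beside 17.9%). The 12 markers of dental epithelium moved along the same libraries. They summed to 2783, 2302 and 1634 CPM in mutants, against 2187, 2737 and 2771 CPM in controls, mostly Krt5 and Krt14. Of the 12, 0 were called, 3 had a positive and 9 a negative log2 fold change, and the median was -0.15. Every mutant library was below every control library for 2 of them (Krt17 and Esrp1), beside 10.8% of all genes, and above for 0. The 7 ameloblast markers summed to 94900, 114800 and 68590 CPM in mutants, against 178900, 201900 and 278000 CPM in controls, a sum made up mostly of Amelx and Ambn. The mean log2(CPM + 1) of the 7 overlapped between the groups, at 12.06, 11.80 and 11.05 in mutants, against 11.67, 12.38 and 11.95 in controls. Of the 7 genes, 3 had a positive log2 fold change (Klk4 at 0.42, Odam at 0.93 and Amtn at 0.79), none of which passed the test, and 4 a negative one. All 4 of these were below every control library in every mutant library, beside 10.8% of all genes. Of the 4, 2 were called lower, the enamel matrix gene Amelx (log2 fold change -1.59; edgeR adjusted p = 0.0470) and the enamel protease gene Mmp20 (-0.97; edgeR adjusted p = 0.0205). Enam (-0.98; edgeR adjusted p = 0.0645) and Ambn (-0.78; edgeR adjusted p = 0.124) were not called. Amelx was not past the threshold without any 1 of the 6 libraries (edgeR adjusted p between 0.0799 and 0.123), nor was Mmp20 without mutant replicate 5 or any 1 control (between 0.0532 and 0.0765). No marker of either list was at 0 in any library. The part of these markers in the values of the epithelial members was not tested.

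The mesenchymal members summed to 2597, 2406 and 2039 CPM in mutants, against 2489, 2950 and 2864 CPM in controls, sums that Gja1 made up for the most part. The 10 mesenchyme markers summed to 20890, 20400 and 22350 CPM in mutants, against 20000, 20780 and 18810 CPM in controls, mostly Col1a2. Their mean log2(CPM + 1) was 8.54, 8.64 and 8.67 in mutants, against 8.41, 8.34 and 8.30 in controls, with the groups apart. Of the 10, 8 had a positive and 2 a negative log2 fold change. Every mutant library was above every control library for 4, beside 10.6% of all genes, and below for 0. One mesenchyme marker, the transcription factor gene Prrx1, was called higher (log2 fold change 0.72; edgeR adjusted p = 0.0299), and its edgeR adjusted p was between 0.0585 and 0.123 without any 1 library other than mutant replicate 3. The endothelial and mural members summed to 43.6, 46.1 and 44.0 CPM in mutants, against 35.8, 40.8 and 37.5 CPM in controls, with the groups apart. The 6 endothelial markers summed to 296, 299.6 and 288 CPM in mutants, against 240.5, 283 and 279 CPM in controls, with the groups apart as well and 0 of the 6 called. Their part in the values of these members was not tested. Markers of blood cells also differed between the libraries. The 7 erythroid markers summed to 1257, 2947 and 2111 CPM in mutants, against 1001, 1059 and 754 CPM in controls, with 0 of the 6 tested called. The 6 macrophage markers summed to 227, 227.5 and 298 CPM in mutants, against 206, 196 and 168 CPM in controls, with 1 of the 6 called, Cd68 (edgeR adjusted p = 0.0498). The 6 odontoblast markers summed to 51250, 41640 and 48250 CPM in mutants, against 48490, 49510 and 48060 CPM in controls, with 0 of the 6 called. The part of these cells in the members' values was not tested.

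**Figure D4:**
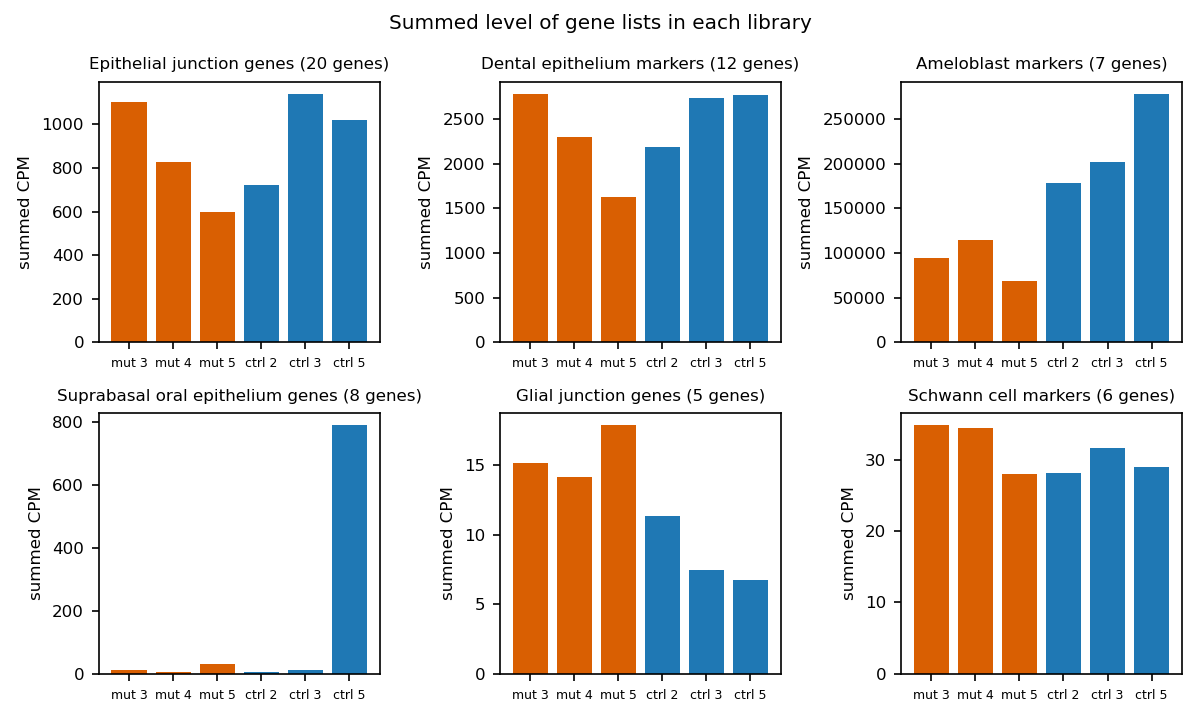
Summed CPM of 6 gene lists in each library, mutants (mut) left and controls (ctrl) right. The epithelial junction genes and the dental epithelium markers are lowest in mutant replicate 5, the summed ameloblast markers, mostly Amelx and Ambn, are lower in every mutant library while 3 of the 7 genes had a positive log2 fold change, and the suprabasal oral epithelium genes stand at 788 CPM in control replicate 5 and at most 31.5 CPM elsewhere.

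Per kilobase of exon, the levels of the members ran over a wide range in both groups. Gja1 came first, at 161 ± 28.4 CPM per kb in mutants and 204 ± 23.9 CPM per kb in controls (SD, n = 3 each). In mutants the next were Cldn1 at 52.9 ± 22.7 and Cdh11 at 46.5 ± 3.81 CPM per kb, whose difference was within their spread. Dsc3, Cdh1, Cdh2 and Cldn20 followed at 29.9 ± 7.48, 27.9 ± 4.03, 27.3 ± 1.56 and 26.0 ± 10.1 CPM per kb in mutants, neighbours that did not differ beyond their spread either. In controls Cldn1 was at 62.7 ± 23.1 CPM per kb, then Cldn20 at 40.2 ± 3.75, Cdh11 at 39.96 ± 2.78, Cdh1 at 34.9 ± 3.61 and Cdh2 at 33.0 ± 3.08 CPM per kb. By mean CPM, 20 members were over 10 CPM in mutants and 19 in controls, and 17 were under 1 CPM in mutants and 15 in controls.

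The 11 members that failed the filter on low counts were Cdh7, Cdh8, Cdh15, Cdh20, Cdh26, Cldn4, Cldn6, Cldn7, Gja6, Dsc1 and Dsg1c. Apart from Dsc1 none of them averaged more than 1 CPM in either group. Cldn6, a claudin of embryonic epithelia, had counts of 19, 6 and 8 in mutants, against 1, 3 and 2 in controls, with the groups apart. It was chosen after its values were seen and was not tested. With no filter on low counts all 51 members were tested, and 0 passed.

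The proteins that tie these junctions to the cell interior included the 2 partner genes that passed the test. Of 15 catenins and desmosomal plaque genes, 13 were tested, 2 fell and 0 rose, where 1.20% of all genes tested were lower. Ctnna2, the alpha-catenin best known from neurons, which links cadherins to actin, stood at 53.8, 85.8 and 54.8 CPM in mutants, against 351, 315 and 457 CPM in controls. It was low in every mutant library, with a log2 fold change of -2.53 (SE 0.22; edgeR adjusted p = 0.00742). Ppl encodes periplakin, a plakin of desmosomes and of the envelope of outer epithelial cells. It stood at 11.9, 12.4 and 10.4 CPM in mutants, against 21.3, 25.8 and 44.0 CPM in controls (log2 fold change -1.39, SE 0.25; edgeR adjusted p = 0.0446), with control replicate 5 the highest. Ppl was no longer past the threshold without any 1 of the 6 libraries (edgeR adjusted p between 0.0532 and 0.127) or with limma (adjusted p = 0.0791), and without control replicate 5 its log2 fold change was -1.01. The median of the 13 was -0.19.

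In the other partner lists no gene passed the test. Of 12 tight junction plaque genes 11 were tested, with a median log2 fold change of 0.06. The smallest p was that of Tjp1, the scaffold ZO-1, which averaged 210 ± 40.0 CPM in mutants and 287 ± 18.3 CPM in controls (SD, n = 3 each; log2 fold change -0.46; edgeR adjusted p = 0.164). The 6 nectins, nectin-like and afadin genes had a median of 0.01, and their smallest p was that of Nectin1, whose product starts adherens junctions. It averaged 121 ± 15.6 CPM in mutants and 176 ± 20.1 CPM in controls (log2 fold change -0.53; edgeR adjusted p = 0.0773). Of the 3 pannexins, which form channels related to gap junctions, Panx1 had the smallest p (23.1 ± 3.94 CPM in mutants and 34.1 ± 3.15 CPM in controls; log2 fold change -0.56; edgeR adjusted p = 0.0924).

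Regulators of E-cadherin were measured as well, 14 genes that repress it, such as the Snail, Zeb and Twist factors, or maintain epithelial expression, such as the Grhl, Ovol and Esrp genes. None of the 14 passed the test, and their median log2 fold change was 0.12. The smallest p belonged to Esrp1, an epithelial splicing factor, at 33.5, 34.1 and 24.8 CPM in mutants, against 42.6, 46.6 and 45.6 CPM in controls (log2 fold change -0.54, SE 0.13; edgeR adjusted p = 0.0858). Twist1, a mesenchymal factor chosen here after its values were seen, was at 37.2, 46.2 and 37.9 CPM in mutants, against 29.7, 31.3 and 25.0 CPM in controls (log2 fold change 0.50, SE 0.12; edgeR adjusted p = 0.0934). The groups of both were apart, with Esrp1 lower and Twist1 higher in every mutant library. They were the only 2 of the 14 with groups apart (14.3%, beside 21.3% of all genes). Of the 14, 9 had a positive and 5 a negative log2 fold change. Of the other genes that maintain epithelial expression, Ovol1, Ovol2 and Esrp2 were at 0.45, 0.36 and 0.06. Grhl1, Grhl2 and Grhl3 were at -0.16, -0.03 and -0.01.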

How the data were processed

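RNA of the apical region of mouse first molars was sequenced single-end, per the labels' protocols. Per the submitters' processing notes, STAR 2.6.1d and Partek were used with mm10; for the strand setting and the annotation, the labels name none. The authors deposited estimated counts per gene, made by Partek's expectation-maximisation quantification per the name of the deposited table, of which 53.8% were whole within 0.001, and a normalized signal per gene in which every library has the same upper quartile. Every gene in the counts has a summed count of at least 10. Estimated counts were rounded and tested with edgeR 4.0.16 (R 4.3.3) on the whole table: filterByExpr by group, TMM scaling, the quasi-likelihood F test without covariates, and Benjamini-Hochberg adjustment over 17305 genes, called under 0.05. CPM uses TMM-scaled library sizes, and log2 fold changes are mutant minus control. DESeq2 1.42.0 and limma 3.58.1 (on log2 of the authors' normalized signal plus 1) were alternatives. With 3 libraries a group, an exact permutation test of one value cannot go below p = 0.1. Exon lengths came from GENCODE, matched for 51 of 51 members. Samples were grouped by genotype. Libraries within a group differed by more than counting noise. As no strand setting is named, it is not known whether the counts tell overlapping genes on opposite strands apart. The scripts were tested on simulated data.

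The members and gene lists were chosen with earlier results of these data known. Genes given with a value in each library were 16 listed junction genes, those of them tested or deposited, and the 2 members of each family with the smallest p. Of the partner lists every called gene was named, and of each list without a call the gene with the smallest p. Dsc1 was outside these rules and is given for its reads in control replicate 5. Arid1a is given as the deleted gene. Other genes given this way are named in the text as chosen after their values were seen or are there as markers. Of the tested members, 1 enters the counts and medians but is not reported here by itself.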

Additional observations from a re-analysis of the deposited data

How the results depend on the processing

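Of 13 alternatives, those that moved a count or median or turned a direction follow. Members higher in mutants numbered 0 in the analysis reported, 1 with library totals alone, 1 with DESeq2, 1 at an adjusted p under 0.10 and 0 to 1 with 1 library left out, each time Cldn11. Members lower numbered 2 with DESeq2 (Cdh23 and Dsg1a), which gave 37 members an adjusted p and left 3 without one. Genes higher over the whole table numbered 114, against 411 with library totals alone, 364 with DESeq2, 44 with limma, 272 at an adjusted p under 0.10 and 1 to 105 with 1 library left out. Genes lower numbered 208, against 109, 510, 69, 400 and 10 to 138. The median of the mesenchymal members was 0.21 with library totals alone, as was that of all genes, and -0.076 to 0.081 with 1 library left out; that of the epithelial members stayed between -0.59 and -0.12. Of 271 values of 21 named members, 245 kept their direction and side of the threshold, 5 passed it and 21 turned. Dsc3 was 0.18 with library totals alone, and with limma Dsc2 and Dsg3 were -0.046 and -0.048. With 1 library left out, log2 fold changes ran between -0.64 and 0.064 for Cldn1, -0.062 and 0.089 for Cldn10, -0.50 and 0.32 for Dsc2, -0.20 and 0.15 for Dsc3, -0.076 and 0.50 for Dsg2, -1.27 and 0.89 for Dsg3, and -0.076 and 0.081 for Gjc1. The cause of these moves was not tested. Counting depth limits members under 1 CPM.

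Replicate numbers 3 and 5 occur in both groups, but the labels do not say what they mark. Deviations from the group means correlated at 0.267 for the pair numbered 3 and at -0.144 for the pair numbered 5. Between unlike numbers they correlated at 0.181 (mutant 3, control 5) and -0.151 (mutant 5, control 3). With so few libraries these values cannot decide whether a shared number marks a shared origin. With the replicate number as a block, 19 genes were higher and 71 lower, 0 members were called, the epithelial median was -0.50, and Dsc2, Dsg2 and Dsg3 turned to -0.39, -0.17 and -0.69. Without it these were the values above and in the text.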
